A study of Mus musculus with 6 samples.

Results

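Heterotrimeric G protein subunit genes and RGS genes, which encode regulators of G protein signalling, were compared between heart ventricles labelled Hspa4-/- and Hspa4+/+. The members were all probe sets whose gene symbol in the array's probe-to-gene table began with Gna, with Gnb and a digit, with Gng and a digit or t, or with Rgs and a digit. This gave 58 of the 20239 genes tested, each with 1 probe set: 16 alpha, 6 beta, 13 gamma and 23 RGS genes. The ventricles came from male 129/Sv mice aged 3.5 weeks, 3 for each genotype, and their total RNA was read on Affymetrix Mouse Gene 1.0 ST arrays, 1 array a mouse. Hspa4, a cytosolic chaperone of the Hsp110 family, is disrupted in the Hspa4-/- mice. Which part of the gene was removed is not stated in the sources used. All mice share the strain, sex and age. Values are log2 intensities, 1 for each probe set and array. A difference is the mean of the Hspa4-/- label minus the wild-type mean, so 1 unit is a doubling.

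A heterotrimeric G protein sits under a receptor at the cell membrane. The active receptor makes the alpha subunit swap GDP for GTP, which frees alpha from the paired beta and gamma subunits, and alpha and beta-gamma each act on effectors until alpha cleaves its GTP. RGS proteins speed that cleavage and so shorten the signal. In the heart, alpha s carries beta-adrenergic stimulation to adenylyl cyclase and alpha i and alpha o carry muscarinic slowing. Alpha q carries angiotensin, endothelin and alpha-adrenergic signals to phospholipase C, and freed beta-gamma opens the acetylcholine-gated potassium channel.

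The array labelled Hspa4-/- replicate 1 went against its label. Hspa4 read 9.33 on it, 6.63 and 6.75 on Hspa4-/- replicates 2 and 3, and 9.48 to 9.74 in wild type. Xist, an RNA of female cells, read 7.68 on it and 5.51 to 5.69 on the others, although each mouse is labelled male. Main results below are therefore given on all 6 arrays and on the 5 arrays without it, and a difference with neither stated is on 6 arrays. Both forms share the same wild-type arrays, so they are not independent. The array SDs were 1.20 for Hspa4-/- replicate 1 and 1.19 for wild-type replicate 3, against 1.23 to 1.27 for the other arrays, and the deviations of these same arrays from their group means correlated at 0.33 over all genes. As a check of the labelled tissue, 7 cardiomyocyte markers averaged 12.13 to 12.32 over the arrays and 7 lung and thymus markers 5.85 to 6.03. Of 12 marker lists, 9 overlapped between the groups. Cardiomyocyte markers (12.27 to 12.32 on the Hspa4-/- label, 12.13 to 12.23 in wild type), atrial and conduction markers (7.15 to 7.35 and 6.94 to 7.08) and macrophage markers (7.45 to 7.55 and 7.67 to 7.75) did not. In whole tissue, more cells of a type and more RNA per cell cannot be told apart.

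Gnao1 and Gnas among the alpha subunits and Gng5 among the gamma subunits had the highest differences of the 58 genes, and Gng12 the lowest. On 6 arrays none of the 58 passed the threshold of an adjusted p of 0.05, as none of all genes did (limma, Benjamini-Hochberg; 0% of 20239, 0 in either direction). On 5 arrays 1 of the 58 passed, Gnao1, which rose, against 0.44% of all genes in both directions and 0.232% upward. An unadjusted p under 0.05 was reached by 5 of 58 on 6 arrays, or 8.62%, 3 higher and 2 lower (limma). The shares over all genes were 11.2%, 5.64% higher and 5.53% lower. On 5 arrays it was reached by 7, or 12.1%, 5 higher and 2 lower, against 14.9% of all genes, 8.55% higher and 6.36% lower (limma). Both shares of members lie below the background, and the 1 call on 5 arrays is a single gene, 1.72% of the 58.

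Values on the Hspa4-/- label lay wholly above or wholly below wild type in 12 of the 58 genes on 6 arrays, or 20.7%, 5 higher and 7 lower. Over all genes 15.1% did not overlap, 6.08% higher and 9.07% lower. On 5 arrays it was 21 genes, or 36.2%, 10 higher and 11 lower, against 33.3% of all genes, 14.4% higher and 18.9% lower. The median difference of the 58 genes was −0.00026 on 6 arrays and 7.0e-05 on 5, beside −0.0094 and −0.018 over all genes. Within a group the 58 genes varied little: the median SD was 0.087 on the Hspa4-/- label and 0.075 in wild type. Gnao1 had the largest SD on the Hspa4-/- label, 0.48, and Gng5 the largest in wild type, 0.29.

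**Figure D1:**
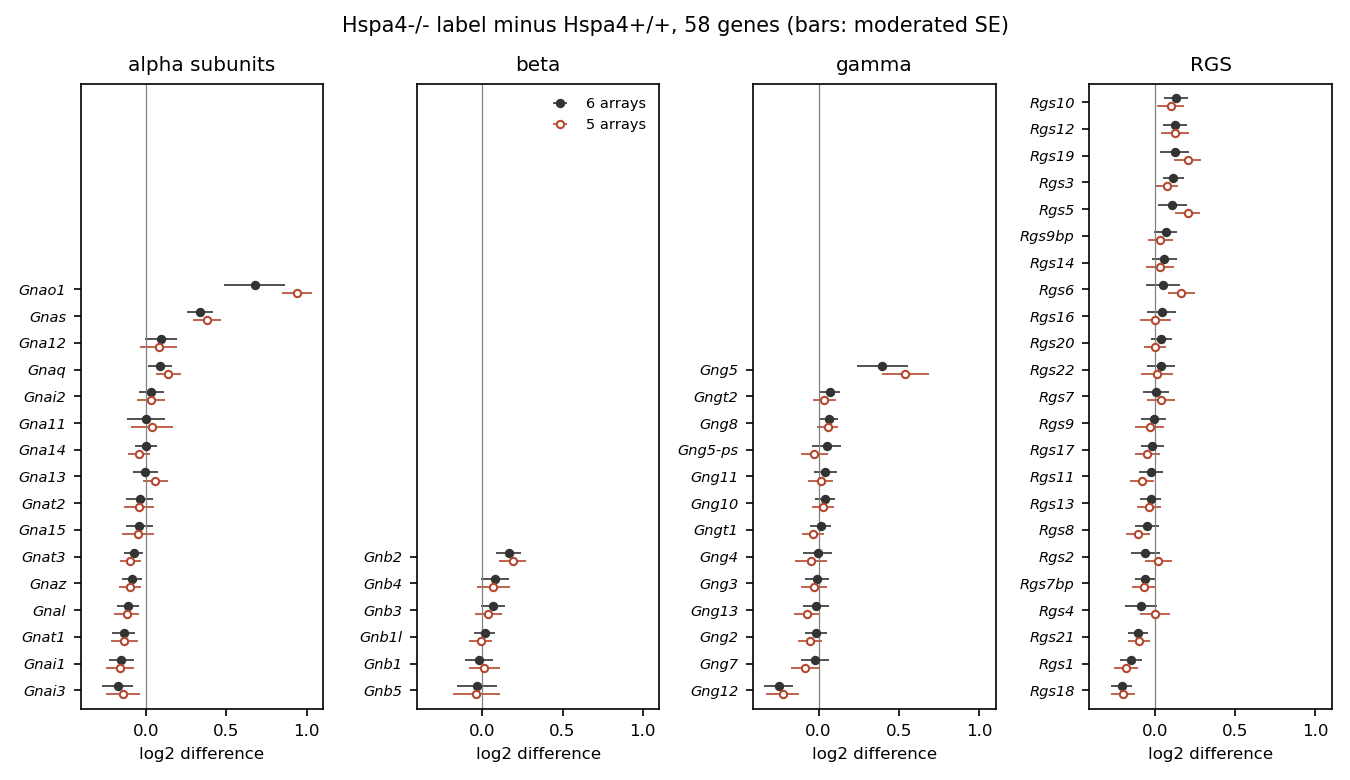
Log2 difference of each of the 58 genes (x axis, Hspa4-/- label minus wild type) with limma's moderated SE as bars, by alpha, beta, gamma and RGS. Filled points use 6 arrays and open points the 5 arrays without Hspa4-/- replicate 1; Gnao1, Gnas and Gng5 lie farthest to the right at 0.68, 0.34 and 0.40 on 6 arrays, and Gng12 farthest to the left at −0.25.

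Gnao1 encodes alpha o, an inhibitory alpha subunit that is abundant in neurons and present in heart muscle. It read 7.70, 8.35 and 8.64 (log2) on Hspa4-/- replicates 1, 2 and 3 and 7.57, 7.55 and 7.55 on their wild-type counterparts. All 3 arrays of the Hspa4-/- label stood above all 3 of wild type, and replicate 1 stood only 0.15 above the wild-type mean. On 6 arrays the difference was 0.68 (SE 0.19, n = 3 per group; limma, adjusted p = 0.256). A two-sided exact permutation of the labels on 6 arrays returned p = 0.1, which is as low as this design reaches. On 5 arrays Gnao1 rose by 0.94 (SE 0.09, n = 2 against 3; limma, adjusted p = 0.0121), with a 95% interval from 0.73 to 1.15. On 5 arrays the same exact test returned p = 0.2, again its floor. The wild-type SD was 0.012, the lowest of the 58 genes in that group. The call on 5 arrays ended without wild-type replicate 1 (limma, adjusted p = 0.0616) and without wild-type replicate 3 (limma, adjusted p = 0.144), with differences of 0.95 and 0.94. Neuron and Schwann markers, for cells where alpha o is also made, averaged 5.85 to 5.998 on the Hspa4-/- label and 5.89 to 6.01 in wild type. Of the 8, 1 was higher on 5 arrays. These averages lie at the level of the lung and thymus markers, 5.85 to 6.03, so nerve content cannot be read from them. Atrial and conduction markers without Nppa averaged 6.83 to 6.89 and 6.75 to 6.85, which overlap, and their part in the Gnao1 value was not tested.

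Gnas encodes alpha s, the subunit that activates adenylyl cyclase below the beta-adrenergic receptors. It read 8.67, 8.74 and 8.85 on Hspa4-/- replicates 1, 2 and 3 and 8.36, 8.55 and 8.33 in wild type. The groups did not overlap, and here Hspa4-/- replicate 1 lay with the others of its label. The difference was 0.34 (SE 0.08; limma, adjusted p = 0.227) on 6 arrays and 0.38 (SE 0.09; limma, adjusted p = 0.0999) on 5, and neither passed. Leaving wild-type replicate 2 out of the 5 arrays, which raised the count over all genes from 89 to 875, gave 0.45 (limma, adjusted p = 0.0228). The Gnas locus also makes other transcripts from upstream starts that share its later exons, and 1 probe set cannot tell these products apart. Gnal, the olfactory relative of alpha s, read 5.45 to 5.48 on the Hspa4-/- label and 5.47 to 5.63 in wild type, a difference of −0.11 (SE 0.07).

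Upstream windows are shown for the subunit genes with the highest and lowest differences. Each is the 250 bases before a RefSeq start on GRCm38.p6, 5′ to 3′ on the gene's strand, in lower case with motif matches in capitals. The motifs searched on both strands were the cAMP response element core TGACG, the TATA box TATAAA, the GC box GGGCGG, the CCAAT box CCAAT, the GATA site GATAA and the CArG box bound by serum response factor, and no matches in these windows overlapped. For Gnas, with 4 annotated starts, and Gng12, with 2, the most downstream Gnas start and the upstream Gng12 start are given.
Gnao1, chr8:93810588-93810837, plus strand: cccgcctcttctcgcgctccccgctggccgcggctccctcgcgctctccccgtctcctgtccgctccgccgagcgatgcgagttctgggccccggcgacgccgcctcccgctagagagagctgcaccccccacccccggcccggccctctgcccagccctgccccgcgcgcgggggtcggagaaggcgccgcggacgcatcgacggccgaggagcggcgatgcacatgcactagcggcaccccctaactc
Gnas, chr2:174329756-174330005, plus strand: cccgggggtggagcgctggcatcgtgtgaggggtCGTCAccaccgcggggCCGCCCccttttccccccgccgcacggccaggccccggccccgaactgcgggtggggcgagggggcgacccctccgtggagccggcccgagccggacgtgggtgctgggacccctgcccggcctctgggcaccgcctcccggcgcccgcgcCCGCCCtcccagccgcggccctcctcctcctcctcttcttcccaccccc
Gng5, chr3:146499586-146499835, plus strand: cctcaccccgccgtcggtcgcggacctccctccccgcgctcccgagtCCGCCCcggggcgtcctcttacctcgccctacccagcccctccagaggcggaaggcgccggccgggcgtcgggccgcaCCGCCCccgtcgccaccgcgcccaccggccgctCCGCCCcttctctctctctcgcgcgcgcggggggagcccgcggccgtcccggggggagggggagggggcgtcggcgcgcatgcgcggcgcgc
Gng12, chr6:66896147-66896396, plus strand: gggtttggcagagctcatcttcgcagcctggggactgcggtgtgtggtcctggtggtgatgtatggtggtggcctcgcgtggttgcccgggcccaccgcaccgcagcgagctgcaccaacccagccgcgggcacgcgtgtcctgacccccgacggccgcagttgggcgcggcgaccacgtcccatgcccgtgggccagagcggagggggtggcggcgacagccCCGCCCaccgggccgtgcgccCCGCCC

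All 4 windows were rich in G and C: 76.4% for Gnao1, 80.0% for Gnas, 82.4% for Gng5 and 74.4% for Gng12, against a median of 52.4% over 32851 windows of the same length and 60.4% over the 55 windows found for 42 of the 58 genes. The Gnao1 window held none of the 6 motifs. The Gnas window held 1 cAMP response element core and 2 GC boxes, the Gng5 window 3 GC boxes and the Gng12 window 2. The downstream Gng12 window, not shown, held none of the 6 motifs, and each Gnas window not shown held a TATA box. Which start a probe set reads is not known. A GC box was found in 32.7% of all windows and 47.3% of the members' windows, and the cAMP response element core in 17.8% and 23.6%. A TATA box was found in 12.4% of all windows and 16.4% of the members' windows, and a CCAAT box in 33.8% and 27.3%. A GATA site was found in 22.6% and 18.2%, and a CArG box in 1.47% and 0%. These matches describe letters and not bound sites.

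Most other genes of the inhibitory class had small negative differences. Of the 8 genes of the i, o, z and transducin class, 6 were lower on 6 arrays, with a median of −0.083, and 6 were lower on 5 arrays, with a median of −0.097. Gnao1 alone of them passed, on 5 arrays. Gnai1 read 9.04, 8.90 and 9.14 on Hspa4-/- replicates 1, 2 and 3 and 9.26, 9.14 and 9.15 in wild type. Its groups did not overlap, though by a narrow gap, and the difference was −0.15 (SE 0.08; limma, adjusted p = 0.512) on 6 arrays and −0.16 (SE 0.09) on 5. Without Hspa4-/- replicate 2 it was −0.09 on the remaining arrays of the 6 and −0.04 on those of the 5, and without replicate 3 of that label −0.28 on those of the 5. Gnai3 read 7.81, 7.81 and 8.02 against 8.24, 7.97 and 7.96, with overlap and a difference of −0.18 (SE 0.10) on 6 arrays and −0.14 (SE 0.11) on 5. Without wild-type replicate 1, the highest array, it was −0.09 and −0.05, and on 5 arrays it was −0.04 without Hspa4-/- replicate 2 and −0.25 without replicate 3. Gnai2, the alpha i form that couples muscarinic receptors in heart muscle, read 10.32, 10.19 and 10.44 against 10.22, 10.34 and 10.29. Its difference of 0.03 had a 95% interval from −0.14 to 0.21 on 6 arrays, and on 5 arrays the difference was 0.03 with an interval from −0.17 to 0.24.

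The sensory alpha subunits and alpha z, which the heart is not known for, read low in both groups. Gnat1 of rods read 5.84, 5.86 and 5.84 on Hspa4-/- replicates 1, 2 and 3 and 6.01, 5.86 and 6.09 in wild type, with overlap at wild-type replicate 2 and a difference of −0.14 (SE 0.07) on 6 arrays and −0.14 (SE 0.08) on 5. Gnat2 of cones differed by −0.04 and the taste subunit gene Gnat3 by −0.08, while Gnaz, which encodes alpha z, differed by −0.09. Gnat3 and Gnaz were lower without overlap at differences no larger than 0.1 in size. The deposited table holds no detection call, so whether these probe sets read RNA of their gene is unknown. When the lowest 25% of genes by mean value were left out, 45 of the 58 genes remained, and 29 remained when the lowest 50% were left out. With these filters the groups did not overlap in 6 of 45 and 5 of 29 members on 6 arrays, or 13.33% and 17.24%, beside 16.2% and 19.5% of all genes kept. On 5 arrays it was 13 and 10 members, or 28.9% and 34.5%, beside 34.2% and 38.0%.

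All differences in the q class and the 12/13 class were between −0.05 and 0.14 in both forms. Gnaq, the main link from hypertrophic agonists to phospholipase C, read 8.49, 8.59 and 8.70 on Hspa4-/- replicates 1, 2 and 3 and 8.50, 8.57 and 8.44 in wild type. The difference was 0.09 (SE 0.08) on 6 arrays and 0.14 (SE 0.08; limma, adjusted p = 0.434) on 5, where the groups did not overlap. Gna11, its close relative, read 8.34, 8.29 and 8.61 against 8.33, 8.64 and 8.26, and both group means were 8.41, with a 95% interval of the difference from −0.26 to 0.26 on 6 arrays and from −0.26 to 0.33 on 5. Gna14 and Gna15, q-class subunits found mostly outside heart muscle, differed by −0.00055 and −0.04. Gna12 read 8.30, 8.26 and 8.24 on Hspa4-/- replicates 1, 2 and 3 and 8.01, 8.41 and 8.10 in wild type, a difference of 0.09 (SE 0.10) on 6 arrays and 0.08 (SE 0.11) on 5. Gna13 read 8.64, 8.82 and 8.83 against 8.66, 8.84 and 8.80, with its lowest value on Hspa4-/- replicate 1, and differed by −0.0037 (SE 0.08) on 6 arrays and 0.06 (SE 0.08) on 5.

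None of the beta subunits passed. Gnb2 had the largest difference of this class. It read 8.18, 8.23 and 8.28 on Hspa4-/- replicates 1, 2 and 3 and 7.93, 8.15 and 8.11 in wild type, so the groups did not overlap, and the difference was 0.16 (SE 0.08; limma, adjusted p = 0.466) on 6 arrays and 0.19 (SE 0.08; limma, adjusted p = 0.339) on 5. Gnb1 read 10.43, 10.37 and 10.68 on Hspa4-/- replicates 1, 2 and 3 and 10.52, 10.47 and 10.54 in wild type, a difference of −0.02 (SE 0.09) on 6 arrays and 0.01 (SE 0.10) on 5. Gnb4 read 6.71, 6.51 and 6.86 against 6.61, 6.58 and 6.66, with its lowest and highest values both on the Hspa4-/- label and a difference of 0.08 (SE 0.09) on 6 arrays and 0.07 (SE 0.10) on 5. Gnb3, known from cones and taste cells, differed by 0.07 (SE 0.08). Gnb5, the divergent beta subunit that pairs with the R7 RGS proteins, read 7.25, 6.94 and 7.52 against 7.27, 7.32 and 7.21. Its 2 extreme values are both on the Hspa4-/- label, on replicates 2 and 3, and the difference was −0.03 (SE 0.13) on 6 arrays and −0.04 (SE 0.14) on 5. Gnb1l, a WD-repeat gene named for its likeness to beta subunits, differed by 0.01. The median over the 5 beta subunits was 0.07 on 6 arrays and 0.04 on 5, and on 5 arrays it was 0.21 without Hspa4-/- replicate 2 and −0.10 without replicate 3.

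Among gamma subunits, which anchor the beta-gamma pair to the membrane through a lipid tail, Gng5 and Gng12 stood at opposite ends. Gng5 read 8.71, 9.08 and 9.21 on Hspa4-/- replicates 1, 2 and 3 and 8.57, 8.91 and 8.33 in wild type. Hspa4-/- replicate 1 lay inside the wild-type range and the other 2 above it. The difference was 0.40 (SE 0.16; limma, adjusted p = 0.393) on 6 arrays and 0.54 (SE 0.15; limma, adjusted p = 0.147) on 5. Wild-type replicate 2 is the highest of its group, and without it the difference on the remaining arrays of the 5 was 0.69 (limma, adjusted p = 0.0133). Leaving that array out also raised the count over all genes from 89 to 875. Without wild-type replicate 3 the Gng5 difference on the remaining arrays of the 5 was 0.40. The transcribed pseudogene Gng5-ps, whose sequence resembles Gng5, read 7.61, 7.49 and 7.26 against 7.35, 7.42 and 7.43 and differed by 0.05 (SE 0.09). Probes can read both copies, so the Gng5 value is uncertain to that extent.

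Gng12 read 8.37, 8.32 and 8.57 on Hspa4-/- replicates 1, 2 and 3 and 8.68, 8.54 and 8.78 in wild type. Replicate 3 of the Hspa4-/- label overlapped wild-type replicate 2. The difference was −0.25 (SE 0.09; limma, adjusted p = 0.346) on 6 arrays and −0.22 (SE 0.10; limma, adjusted p = 0.346) on 5. On 5 arrays it was −0.10 without Hspa4-/- replicate 2 and −0.35 without replicate 3 of that label. The other 10 gamma subunits differed by −0.02 to 0.07 on 6 arrays, and their 5-array differences lay between −0.08 and 0.06. Gng10 (0.04), Gng2 (−0.02), Gng7 (−0.02) and Gng11 (0.04) are widely expressed forms. Gng3 (−0.0075), Gng4 (−0.0053), Gng8 (0.06), Gng13 (−0.02), Gngt1 of rods (0.01) and Gngt2 of cones (0.07) are known mainly from neurons and sensory cells. Of the 12 gamma subunits, 6 were higher and 6 lower on 6 arrays, with a median of 0.0038, and Gng8 alone did not overlap, at 5.75 to 5.78 against 5.69 to 5.72. Gngt2 read 6.07, 5.92 and 6.02 on Hspa4-/- replicates 1, 2 and 3 and 5.93, 5.96 and 5.90 in wild type, with overlap. Gng7 read 6.52, 6.31 and 6.35 against 6.35, 6.34 and 6.56, also with overlap, and its 5-array difference was −0.08.

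**Figure D2:**
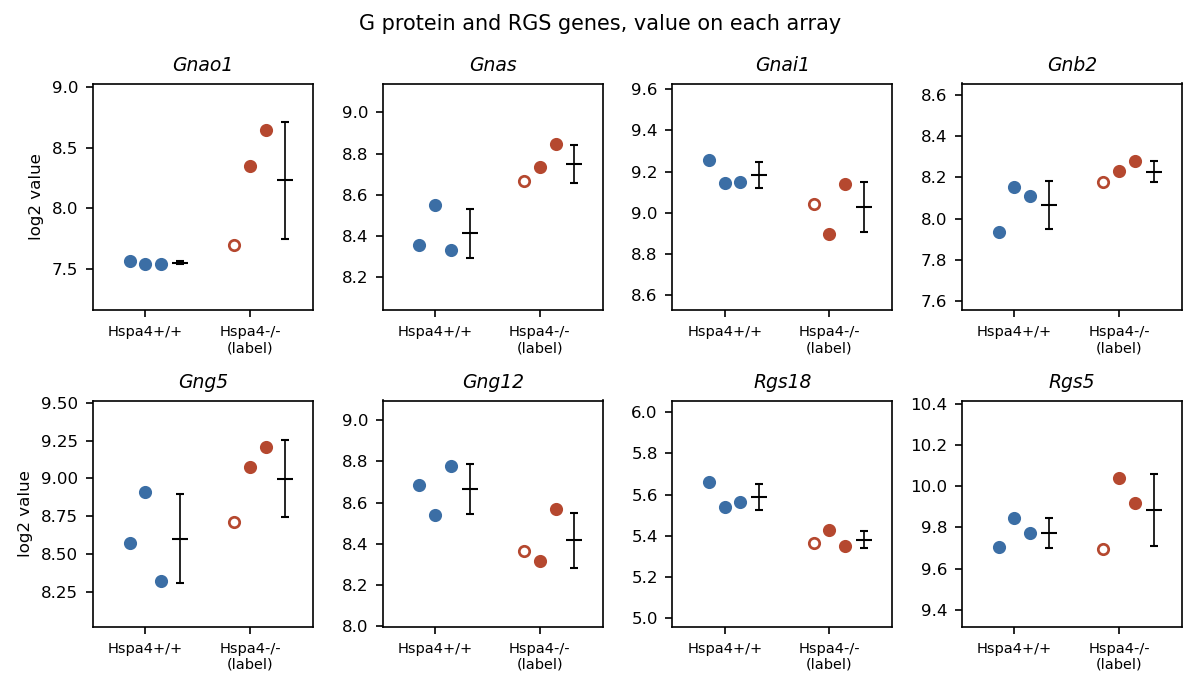
Log2 value of 8 genes on each array (y axis, each panel with its own range), wild type in blue and the Hspa4-/- label in red, in replicate order from left to right. The open point is Hspa4-/- replicate 1 and the black bar is the mean with SD (n = 3); for Gnao1 that array reads 7.70, near the wild-type values, while for Gnas it reads 8.67, near the others of its label.

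The RGS genes of the R4 family, small proteins that act on alpha i and alpha q, had no member past the threshold in either form. Their median over 10 genes was −0.054 on 6 arrays and −0.018 on 5. Rgs18, known from platelets and blood cell precursors, had the smallest p of all RGS genes on 6 arrays (limma, unadjusted p = 0.0107, adjusted p = 0.289). It read 5.36, 5.43 and 5.35 on Hspa4-/- replicates 1, 2 and 3 and 5.66, 5.54 and 5.56 in wild type, without overlap, a difference of −0.21 (SE 0.07) on 6 arrays and −0.20 (SE 0.07) on 5. Rgs1, known from lymphocytes and macrophages, read 5.28, 5.22 and 5.14 against 5.40, 5.28 and 5.39, again without overlap, a difference of −0.15 (SE 0.07; limma, adjusted p = 0.466) on 6 arrays and −0.18 (SE 0.07; limma, adjusted p = 0.298) on 5. Macrophage markers were lower in 7 of 7 genes on 6 arrays with a median of −0.21. On 5 arrays their median was also −0.21, and 1 of the 7, C1qa, was higher, at 0.04. The platelet list overlapped (6.24 to 6.33 and 6.26 to 6.33, 6 genes). On 6 arrays 4 of its 6 genes were higher, with a median of 0.03, and Pf4 at −0.23 and Itga2b at −0.06 were the lower ones. On 5 arrays 3 of the 6 platelet genes were higher, with a median of −0.0033. The lymphocyte and neutrophil list also overlapped (5.67 to 5.84 and 5.74 to 5.83, 7 genes), but it read no higher than the lung and thymus markers (5.85 to 6.03). The part of these cell types in the Rgs1 and Rgs18 values was not tested.

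Rgs5 and Rgs4, neighbours on the chromosome and markers of pericytes, differed in sign on 6 arrays. Rgs5 read 9.69, 10.04 and 9.92 on Hspa4-/- replicates 1, 2 and 3 and 9.70, 9.85 and 9.77 in wild type. Hspa4-/- replicate 1 was the lowest array and the other 2 were the highest, so the difference was 0.11 (SE 0.09) on 6 arrays and 0.20 (SE 0.08; limma, adjusted p = 0.267) on 5. Rgs4, which is also made in atrial and nodal muscle cells, read 6.62, 7.03 and 6.75 against 6.84, 6.88 and 6.94. Its lowest and highest values were both on the Hspa4-/- label, and the difference was −0.09 (SE 0.10) on 6 arrays and 0.0034 (SE 0.09) on 5. Smooth muscle and pericyte markers averaged 8.21 to 8.39 and 8.20 to 8.27 (8 genes), with Hspa4-/- replicate 1 the lowest of its label as for Rgs5, and their part in the Rgs5 value was not tested.

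Rgs2, which limits alpha q signals in heart and vessel, read 6.95, 7.22 and 7.16 on Hspa4-/- replicates 1, 2 and 3 and 7.29, 7.13 and 7.09 in wild type, a difference of −0.06 with a 95% interval from −0.26 to 0.14. On 5 arrays its difference was 0.02, and quantile normalisation turned it to −0.025. Rgs3, another R4 gene of heart muscle, read 7.13, 6.9996 and 7.02 against 6.89, 6.94 and 6.98, without overlap but by only 0.11 (SE 0.07) on 6 arrays and 0.08 (SE 0.07) on 5. Rgs16 differed by 0.04 and Rgs8 by −0.05. The R4 genes Rgs2, Rgs13, Rgs1, Rgs21 and Rgs18 follow one another on chromosome 1 with 0 other protein-coding genes between neighbours in the RefSeq gene table of GRCm38.p6. All 5 had negative differences on 6 arrays, at −0.06, −0.03, −0.15, −0.10 and −0.21. Of these, Rgs1, Rgs21 and Rgs18 did not overlap, and over all genes 9.07% lay lower without overlap. Rgs13, Rgs1, Rgs21 and Rgs18 read low, between 5.14 and 5.66, where the lowest value of an array was 4.76 to 4.86. With the lowest 25% of genes left out, the R4 median on 6 arrays was −0.0032. Rgs21, known from taste cells, read 5.28, 5.27 and 5.30 on Hspa4-/- replicates 1, 2 and 3 and 5.43, 5.38 and 5.36 in wild type. On 5 arrays Rgs2 stood at 0.02 and the other 4 at −0.04, −0.18, −0.10 and −0.20.

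In the R7 family, which works in complex with Gnb5, Rgs6 is the form known to shorten muscarinic signals in the heart. It read 7.27, 7.49 and 7.73 on Hspa4-/- replicates 1, 2 and 3 and 7.47, 7.46 and 7.40 in wild type. As for Gnao1 and Rgs5, Hspa4-/- replicate 1 lay below the other 2 arrays of its label, and as for Rgs5 it also lay below all of wild type. The difference was 0.05 (SE 0.11) on 6 arrays and 0.17 (SE 0.09; limma, adjusted p = 0.412) on 5. Rgs7, Rgs9 and Rgs11 differed by 0.0065, −0.0086 and −0.02. The R7 anchor gene Rgs7bp had a difference of −0.06 without overlap, at 6.23 to 6.30 against 6.31 to 6.38, and the photoreceptor anchor gene Rgs9bp differed by 0.07.

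All 3 genes of the R12 family had positive differences in both forms: Rgs10 at 0.13 (SE 0.08), Rgs12 at 0.12 (SE 0.08) and Rgs14 at 0.06 (SE 0.08) on 6 arrays, and 0.10, 0.13 and 0.03 on 5. Their groups overlapped and none passed. Rgs10 read 6.80, 6.80 and 6.59 on Hspa4-/- replicates 1, 2 and 3 and 6.61, 6.55 and 6.63 in wild type, so that replicate 3 of the Hspa4-/- label lay inside the wild-type range. Of the RZ family, which prefers alpha z and alpha i, Rgs19 read 6.71, 6.91 and 7.003 on Hspa4-/- replicates 1, 2 and 3 and 6.87, 6.69 and 6.70 in wild type, a difference of 0.12 (SE 0.09) on 6 arrays and 0.20 (SE 0.08; limma, adjusted p = 0.293) on 5. Rgs17 and Rgs20 differed by −0.02 and 0.04, and Rgs22, of no family above, by 0.04. Over the 23 RGS symbols, 12 were higher and 11 lower on 6 arrays, with a median of 0.0065, and 13 higher and 10 lower on 5.

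Pairs of alpha genes that lie side by side in the gene table, or nearly so, can be set next to each other. Gnai1 and its neighbour Gnat3 differed by −0.15 and −0.08 on 6 arrays, and Gnai3 and its neighbour Gnat2 by −0.18 and −0.04. Gnai2 and Gnat1, with 1 other protein-coding gene between them, differed by 0.03 and −0.14. Gnaq and Gna14 differed by 0.09 and −0.00055, and Gna11 and Gna15 by 3.5e-05 and −0.04. No neighbouring alpha pair had both groups of both genes apart except Gnai1 with Gnat3.

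The genes around the G proteins were taken from 6 lists of receptors, effectors and other regulators, 124 genes measured of 140 symbols listed. On 6 arrays none of the 124 passed, and 19 had an unadjusted p under 0.05 (limma), or 15.3%, 12 higher and 7 lower, beside the 11.2% of all genes. On 5 arrays Rasd2 rose and P2ry1 and Kcnj3 fell, 2.42% of the 124 beside 0.44% of all genes, and 25 had an unadjusted p under 0.05 (limma), or 20.2%, beside 14.9%. Subtracting array medians ended these 3 calls (limma, adjusted p = 0.0594, 0.0577 and 0.0549), and all 3 also ended without Hspa4-/- replicate 2 or 3 or without wild-type replicate 1 or 3, at adjusted p-values (limma) from 0.0796 to 0.225. Quantile normalisation also ended the Rasd2 call (limma, adjusted p = 0.05004). The median difference of the 124 genes was 0.0035 on 6 arrays and 0.00050 on 5.

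Kcnj3 and Kcnj5 encode the subunits of the acetylcholine-gated potassium channel, which beta-gamma opens, and their differences had opposite signs. Kcnj3 read 8.09, 7.64 and 7.52 on Hspa4-/- replicates 1, 2 and 3 and 8.08, 8.20 and 8.10 in wild type, with Hspa4-/- replicate 1 at the wild-type level. Its difference was −0.38 (SE 0.13; limma, adjusted p = 0.323) on 6 arrays, and on 5 it fell by 0.55 (SE 0.08; limma, adjusted p = 0.0310). Kcnj5 read 8.14, 8.41 and 8.54 against 8.08, 8.19 and 7.95, a difference of 0.29 (SE 0.11) on 6 arrays and 0.40 (SE 0.09; limma, adjusted p = 0.0908) on 5. Chrm2, the muscarinic receptor of heart muscle that acts through alpha i and alpha o, read 10.47, 10.44 and 10.51 against 10.63, 10.62 and 10.73, without overlap, a difference of −0.19 (SE 0.06; limma, adjusted p = 0.321) on 6 arrays and −0.19 (SE 0.07; limma, adjusted p = 0.271) on 5. The other 19 genes of the effector list that holds Kcnj3 and Kcnj5 had differences on 6 arrays between −0.15 for Pik3cg and 0.19 (SE 0.06) for Kalrn.

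P2ry1, a purine receptor that couples to alpha q, read 7.50, 7.19 and 7.15 on Hspa4-/- replicates 1, 2 and 3 and 7.88, 7.61 and 7.79 in wild type. The groups did not overlap. The difference was −0.48 (SE 0.11; limma, adjusted p = 0.213) on 6 arrays, and on 5 it fell by 0.59 (SE 0.09; limma, adjusted p = 0.0374). Avpr1a, a vasopressin receptor of the same coupling, differed by −0.26 (SE 0.07; limma, adjusted p = 0.249) on 6 arrays and −0.31 (SE 0.07; limma, adjusted p = 0.0999) on 5. Of the 19 Gq-coupled receptors measured, 10 were higher and 9 lower on 6 arrays, and 8 higher and 11 lower on 5. Of the 19 Gi-coupled receptors, 14 were lower on 6 arrays and 15 on 5, with medians of −0.07 and −0.08 and Npy1r, a neuropeptide Y receptor, at −0.14 (SE 0.07) in both forms. Of the 11 Gs-coupled receptors measured, 7 were lower in both forms. The prostaglandin receptor genes Ptger2 and Ptger4 had the smallest p on 6 arrays, with differences of 0.14 (SE 0.08) and 0.12 (SE 0.07), and 0.10 and 0.17 on 5.

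Rasd2, a Ras-like protein that interferes with G protein signalling, read 6.82, 7.47 and 7.47 on Hspa4-/- replicates 1, 2 and 3 and 6.46, 6.86 and 6.37 in wild type. Hspa4-/- replicate 1 stood just under wild-type replicate 2 and the other 2 above every wild-type array. The difference was 0.69 (SE 0.18; limma, adjusted p = 0.245) on 6 arrays, and on 5 it rose by 0.91 (SE 0.13; limma, adjusted p = 0.0319). Grk3, a kinase that silences active receptors after binding beta-gamma, read 7.04, 7.05 and 7.17 against 6.70, 6.72 and 6.78. All arrays of the Hspa4-/- label lay above wild type, and the difference was 0.36 (SE 0.07; limma, adjusted p = 0.210) on 6 arrays and 0.38 (SE 0.07; limma, adjusted p = 0.0655) on 5. Snx13, a sorting nexin with an RGS domain, differed by −0.29 (SE 0.08; limma, adjusted p = 0.239) on 6 arrays and −0.29 (SE 0.09; limma, adjusted p = 0.172) on 5. Among the 25 genes of adenylyl cyclases, protein kinase A and phosphodiesterases, 17 were higher on 6 arrays and 14 on 5. An unadjusted p under 0.05 (limma) was reached by 5 on 6 arrays, or 20.0%, and by 4 on 5 arrays, or 16%, each of them higher. Over all genes the shares were 11.2% and 14.9%, with 5.64% and 8.55% higher. Adcy6 had the largest difference of this list on 6 arrays, 0.39 (limma, unadjusted p = 0.0276). It read 9.62, 8.96 and 9.10 on Hspa4-/- replicates 1, 2 and 3 and 8.81, 8.97 and 8.72 in wild type. On 5 arrays its difference was 0.20 (limma, unadjusted p = 0.0590). Adcy5, a main cyclase of heart muscle, had a difference of 0.32 (SE 0.11; limma, adjusted p = 0.321) on 6 arrays and 0.39 (SE 0.12) on 5. Rapgef3, a cAMP-activated exchange factor, had one of 0.29 (SE 0.08; limma, adjusted p = 0.245) and 0.23 (SE 0.08).

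**Figure D3:**
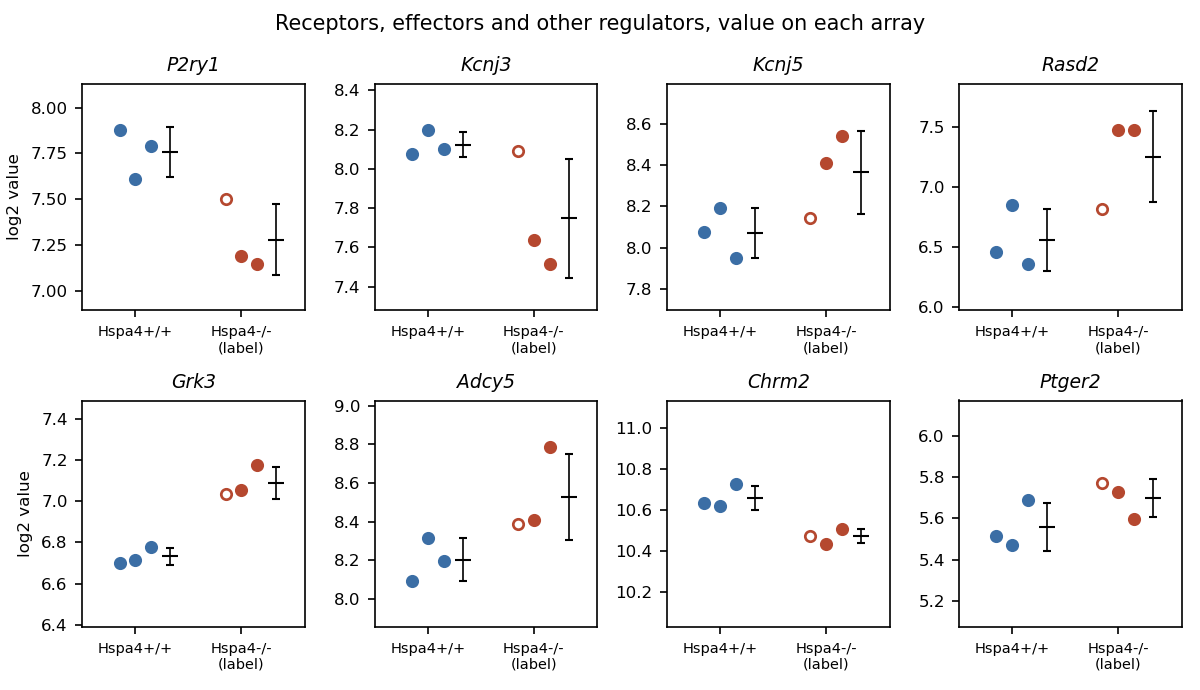
Log2 value of 8 genes around the G proteins on each array (y axis, each panel with its own range), with colours, order and bars as in the plot of member values. Kcnj3 reads 7.64 and 7.52 on Hspa4-/- replicates 2 and 3 and 8.08 to 8.20 in wild type, and the open point, replicate 1, reads 8.09.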

How the data were processed

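Total RNA of heart ventricles was read on 6 Affymetrix Mouse Gene 1.0 ST arrays, 3 a genotype, in which nothing beyond the count of mice describes the replicates. The deposited values are log2 intensities, 1 for each of 21225 probe sets and array. R 2.13.0 and affy are named per the submitters' processing notes, while no source used here gives the background correction, normalisation or summary. Precision is limited by how few arrays there are. The 986 probe sets with no symbol were left out, so 20239 genes were tested. Differences were fitted with limma 3.58.1 (lmFit and eBayes) in R 4.3.3 on all genes, with Benjamini-Hochberg adjustment over all of them and a threshold of 0.05, on 6 arrays and on the 5 without Hspa4-/- replicate 1. The exact permutation test used SciPy 1.17.1. The fit was also run on simulated data with independent noise on each array. Those data held no array against its label, so the run does not show how the fit behaves with one. Gene names, gene order and upstream windows came from RefSeq tables of GRCm38.p6.

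The members and gene lists were chosen with earlier results of these data known. Array values were given for genes past the threshold, for the smallest p-values of each class (4 alpha, 2 beta, 3 gamma, 5 RGS) on 6 and on 5 arrays, and for genes with a role in the heart. In each pathway list, genes past the threshold were named, otherwise the 2 with the smallest p. Values of other genes were added after they were seen. The alternatives were leaving out each array, leaving out the lowest 25% or 50% of genes, quantile normalisation, subtracting array medians, array weights, a mean trend in eBayes and the replicate number as a block. Those on the pathway genes were chosen after seeing the data. Listed symbols that were not matched were not analysed here.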

Additional observations from a re-analysis of the deposited data

How the results depend on the processing

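Groups of 3 arrays, 1 of them against its label, and no measure of background limit these results, and the cause of each change below was not tested. On 6 arrays no member passed under any alternative except without Hspa4-/- replicate 1. On 5 arrays Gnao1 passed under every alternative except without wild-type replicate 1 or 3. Over all genes the count past the threshold on 6 arrays was 0, but 115 with array weights, 112 without wild-type replicate 2, 89 without Hspa4-/- replicate 1, and 2 with each filter and with the block. On 5 arrays it was 89, with 36 after subtracting array medians, 321 with array weights, 156 and 167 with the filters, 134 with the block, and 2 to 875 when 1 array was left out. Over the single genes, 49 values reversed, 12 became significant and 18 ceased to be. Single-gene values that kept direction and side, together with counts over all genes that moved little, numbered 954.

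Leaving out the lowest 25% of genes, which leaves fewer members, gave 6 members without overlap on 6 arrays and 13 on 5, and leaving out the lowest 50% gave 5 and 10. With the lowest 25% left out, the median on 6 arrays was −0.14 for the i, o, z and transducin class and −0.0032 for the R4 family, and on 5 arrays 0.022 for all members, 0.034 for alpha and 0.013 for R4. With the lowest 50% left out, it was 0.051 for all members, 0.032 for alpha, 0.11 for RGS and 0.025 for R4 on 6 arrays. On 5 arrays it was then 0.037 for all members, 0.057 for alpha, −0.055 for the i, o, z and transducin class, 0.097 for RGS and 0.049 for R4.

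Quantile normalisation gave 13 members without overlap on 5 arrays, where the count was 21 without it. The share over all genes was not counted under quantile normalisation, so this fall cannot be set against the background. The median of the i, o, z and transducin class on 5 arrays was then −0.042. Quantile normalisation turned Gna11 (−0.015), Gnb1 (−0.024), Rgs2 (−0.025) and Rgs4 (−0.030) on 5 arrays, and Gna11 on 6 arrays (−0.021). Subtracting array medians turned Gna11 on 6 arrays (−0.0039) and left 0 pathway genes past the threshold on 5 (limma), where 25 then had an unadjusted p under 0.05. On 5 arrays the Rasd2 call also ended under quantile normalisation. Array weights turned Gna11 (−0.0068), Gna13 (0.052) and Rgs4 (0.018) on 6 arrays and Rgs2 (−0.0044) on 5, and called 3 pathway genes on 6 arrays, Grk3, P2ry1 and Rasd2.

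The deviations of same-numbered arrays from their group means correlated at −0.17, 0.09 and −0.25. The group means rest on 3 arrays each, and 1 array goes against its label. These correlations therefore cannot show whether the numbers pair the samples. With the replicate number as a block, the median of all members on 5 arrays was −0.028, and Gnai2 (−0.00046), Gna11 (−0.00091), Gna12 (−0.0045) and Rgs4 (−0.018) turned, as they do without wild-type replicate 1, since that number then has no other array.

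With 1 array left out of the 6, 0 to 1 members and 0 to 3 pathway genes passed and 14 to 21 members did not overlap. Over all genes the share without overlap was 15.1% on 6 arrays and 33.3% without Hspa4-/- replicate 1. It was not counted without any other array, so the other overlap counts of this range cannot be set against the background. Medians ran from 7.0e-05 to 0.037 for all members and −0.084 to −0.0077 for R4. Differences ran from −0.0019 to 0.17 for Gnb4, −0.085 to 0.049 for Gng7, −0.064 to 0.17 for Rgs6, −0.030 to 0.095 for Gnai2, −0.099 to 0.11 for Gna11, −0.056 to 0.057 for Gna13, −0.11 to 0.041 for Gnb1, −0.17 to 0.12 for Gnb5, −0.25 to −0.086 for Gnai3, −0.11 to 0.022 for Rgs2 and −0.20 to 0.0034 for Rgs4. With 1 left out of the 5, where a lone mutant array is assumed to vary like the others, 0 to 3 members and 0 to 6 pathway genes passed and 24 to 37 members did not overlap. Medians ran from −0.028 to 0.022 for all members, −0.087 to 0.021 for alpha, −0.13 to −0.038 for the i, o, z and transducin class, −0.10 to 0.21 for beta, −0.048 to 0.017 for gamma and −0.071 to −0.027 for R4. Differences ran from −0.10 to 0.24 for Gnb4, −0.015 to 0.088 for Gngt2, −0.0045 to 0.20 for Rgs10, −0.094 to 0.16 for Gnai2, −0.12 to 0.20 for Gna11, −0.0045 to 0.20 for Gna12, −0.14 to 0.17 for Gnb1, −0.32 to 0.25 for Gnb5, −0.35 to −0.097 for Gng12, −0.28 to −0.040 for Gnai1, −0.25 to −0.037 for Gnai3, −0.018 to 0.082 for Rgs2 and −0.14 to 0.15 for Rgs4. With 1 left out of the 5, the share of all genes without overlap was not counted. The 24 to 37 members without overlap therefore have no background and do not show more separation than among all genes. A pseudocount was not tried, since the values are already log2, and weights, trend and block give no count of overlap.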
